A study of Homo sapiens with 208 samples.

Results

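The 8 genes described here encode ATP-binding cassette (ABC) transporters that move drugs, drug conjugates or lipids out of cells. They are ABCB1, ABCG2, ABCC1, ABCC2, ABCC3, ABCC4, ABCC5 and ABCA1, and they were taken by name, as the probes whose RefSeq accession belongs to one of them. They make up 8 of the 16961 genes with a named probe on the array and are measured by 13 probes. ABCB1, ABCG2, ABCC1 and ABCC3 have 1 probe each, ABCC2, ABCC5 and ABCA1 have 2, and ABCC4 has 3. The genes lie on chromosomes 7 (ABCB1), 4 (ABCG2), 16 (ABCC1), 10 (ABCC2), 17 (ABCC3), 13 (ABCC4), 3 (ABCC5) and 9 (ABCA1). Of them, 7 passed the filter on dim signals and were tested, and ABCB1 did not pass it.

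RNA came from PC9, a gefitinib-sensitive line of lung adenocarcinoma cells with an activating deletion in EGFR, and from PC9GRM2, a gefitinib-resistant clone selected from PC9 by prolonged culture with the drug, so that resistance is represented by 1 clone. Gefitinib inhibits the EGFR kinase, and EGF is the ligand of that receptor. Both lines were starved for 48 h and then left untreated or given 0.5 uM gefitinib, 100 ng/ml EGF, or EGF and gefitinib together. Gefitinib was added 2 h before the first time point and EGF at the first time point. RNA was taken at 26 time points, 0 and 0.5 h and then every hour from 1 to 24 h, which gave 8 time courses of 26 one-colour arrays each.

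ABC transporters are membrane pumps that use ATP hydrolysis to carry a substrate across the membrane. ABCB1 (P-glycoprotein, MDR1) and ABCG2 (BCRP) expel a wide range of unmodified drugs, kinase inhibitors such as gefitinib among them, and are known as multidrug resistance pumps. The ABCC proteins (MRP family) mostly export organic anions, including glutathione, glucuronide and sulfate conjugates and, for ABCC4 and ABCC5, nucleotide analogues and cyclic nucleotides. ABCA1 passes cholesterol and phospholipids to apolipoproteins and is a classical target of the liver X receptors.

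Signals are given as log2 of the quantile-normalised intensity. A difference of 1 on this scale is a 2-fold change. Each time point of a course had 1 array, so the time points stood in for replicates, n is their number, and p-values measure the spread over the time points of 1 series of cultures. Unless stated otherwise, tests were limma's two-sided moderated tests on the differences at matched time points, with p-values adjusted (Benjamini-Hochberg) across all 13263 tested genes and a threshold of 0.05. The scanner software found 24464 to 35938 features per array well above background, and all arrays were in its quality range. The 4 treatments of a line at a given hour lay on the same slide. No slide and no scan day was common to PC9 and PC9GRM2, and line and scanning period cannot be told apart. The untreated PC9GRM2 array at 11 h stood farthest from its neighbouring hours of all arrays, and the gefitinib-treated PC9 arrays at 16 h and 14 h were among the 4 farthest. Epithelial markers were present in both lines (7 of 7 passed the filter). The log2 of their summed signals was 17.39 to 18.36 on PC9 arrays and 18.17 to 18.59 on PC9GRM2 arrays. Without treatment, 2 of the 7 were higher in PC9GRM2 (31.1% of all tested genes) and 3 were lower (37%). KRT19 was 1.71 higher and KRT8 was 1.32 lower, so that the sums do not describe each gene. Of 8 markers of other cell types, 7 were on the array and 5 passed the filter, PTPRC (CD45) not among them. The log2 of the summed signals of the 7 was 8.35 to 10.92 on PC9 arrays and 8.44 to 10.52 on PC9GRM2 arrays. Its median rose from 9.06 without treatment to 9.93 with gefitinib in PC9GRM2. With gefitinib 1 of the 5 tested genes was higher and 2 were lower in PC9 (35.1% and 37.2% of all tested genes). In PC9GRM2, 3 were higher and 0 lower (32.6% and 34.2%). Those lower in PC9 were ACTA2, a smooth muscle actin gene (-0.42, adjusted p = 0.0218), and PECAM1, an endothelial gene (-0.17, adjusted p = 0.00242). The endothelial gene VWF was 1.76 higher with gefitinib in PC9 (adjusted p = 6.73e-11) and 1.08 higher in PC9GRM2 (adjusted p = 3.64e-07, limma), and the part of such markers in the results below was not tested.

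Promoter sequences are shown for ABCA1 and ABCC5, whose signals were higher with gefitinib in both lines, and for ABCC2 and ABCG2, whose signals were lower late in the gefitinib courses of both lines. They come from the RefSeq table of build GRCh38.p14, which is a later build than the hg18 annotation of the arrays, and hold the 250 bases before the annotated transcription start, read 5′ to 3′ on the gene's strand. Windows were found for 6 of the 8 genes, ABCC1 and ABCC3 not among them. Capitals mark matches to the searched motifs on either strand. The first was the GC box GGGCGG. The second was the E-box, spelled CACGTG. The third was the TATA sequence, searched as TATAAA, and the fourth was the core of the antioxidant response element, TGACNNNGC. The others were direct repeats with any 4 bases between their units. A first repeat had the unit AGGTCA on both sides, and in the other the unit AGGTTA came first and was followed, after the 4 bases, by the unit CGGTCA. ABCA1 lies on the minus strand (chr9:104928156-104928405), ABCC5 on the minus strand (chr3:184017885-184018134), ABCC2 on the plus strand (chr10:99782390-99782639) and the ABCG2 window shown, 1 of 5 for that gene, on the minus strand (chr4:88158910-88159159).
ABCA1: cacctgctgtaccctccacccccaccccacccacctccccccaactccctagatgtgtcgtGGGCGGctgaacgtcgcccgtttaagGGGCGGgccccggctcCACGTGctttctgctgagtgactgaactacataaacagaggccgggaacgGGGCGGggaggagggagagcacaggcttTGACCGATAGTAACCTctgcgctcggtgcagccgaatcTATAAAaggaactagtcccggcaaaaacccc
ABCC5: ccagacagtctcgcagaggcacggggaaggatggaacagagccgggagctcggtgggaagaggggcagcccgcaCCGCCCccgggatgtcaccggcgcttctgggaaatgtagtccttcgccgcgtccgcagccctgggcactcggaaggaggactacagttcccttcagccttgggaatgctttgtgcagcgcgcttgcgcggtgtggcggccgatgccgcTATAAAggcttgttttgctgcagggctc
ABCC2: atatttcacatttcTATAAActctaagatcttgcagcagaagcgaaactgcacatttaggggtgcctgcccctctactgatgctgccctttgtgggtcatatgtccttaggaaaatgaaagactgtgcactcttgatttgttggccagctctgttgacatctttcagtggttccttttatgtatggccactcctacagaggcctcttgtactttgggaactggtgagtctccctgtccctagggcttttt
ABCG2: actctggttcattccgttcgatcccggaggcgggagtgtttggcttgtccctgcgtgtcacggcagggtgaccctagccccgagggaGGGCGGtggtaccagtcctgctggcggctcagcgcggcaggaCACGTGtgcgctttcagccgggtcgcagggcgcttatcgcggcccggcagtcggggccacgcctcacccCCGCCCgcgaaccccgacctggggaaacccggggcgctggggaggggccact

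The ABCA1 window held 3 GC boxes, which 42.6% of the 35116 promoter windows in the table have at least once, an E-box (6.34% of windows), and TATAAA 31 to 26 bases before the start (10.7% of windows). It also held the direct repeat of the liver X receptor element 69 to 54 bases before the start, which reads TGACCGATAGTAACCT on the gene's strand. The letters of that repeat were taken from the element known in this promoter, so that its single match in the table, at ABCA1 itself (0.00285% of windows), was fixed by the choice. The other repeat, with AGGTCA on both sides, matched 5 windows (0.0142%) and none of the genes described here. The ABCC5 window held a GC box 176 to 171 bases and TATAAA 28 to 23 bases before the start. In the ABCC2 window only TATAAA was matched, at 236 to 231 bases. The ABCG2 window shown held 2 GC boxes and an E-box, which lie also in a window that overlaps it, and the other 3 windows of ABCG2 held no match. The ABCC4 window matched TGACNNNGC, as did 10.9% of windows, and neither ABCB1 window held a match. These matches are descriptions of letters and were not tested for binding.

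The multidrug pump ABCB1 was at background in both lines. Its probe (A_23_P82523, spotted 10 times on each array) was well above background on 0 of 26 arrays in 7 of the 8 courses, and on 1 of 26 in PC9 cells with gefitinib. The course means lay between 2.21 and 2.43. The single array above background was the one at 14 h, with a log2 signal of 6.02 against 2.62 and 2.38 in the hours before and after. On the same array 35414 features were well above background, against 29146 and 27741 on the arrays of the neighbouring hours, and the dim ABCC4 probe A_24_P222291 read 5.77 against 3.04 and 2.43. No fold change between lines or treatments is given for ABCB1, since both sides of each comparison were at background.

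**Figure D1:**
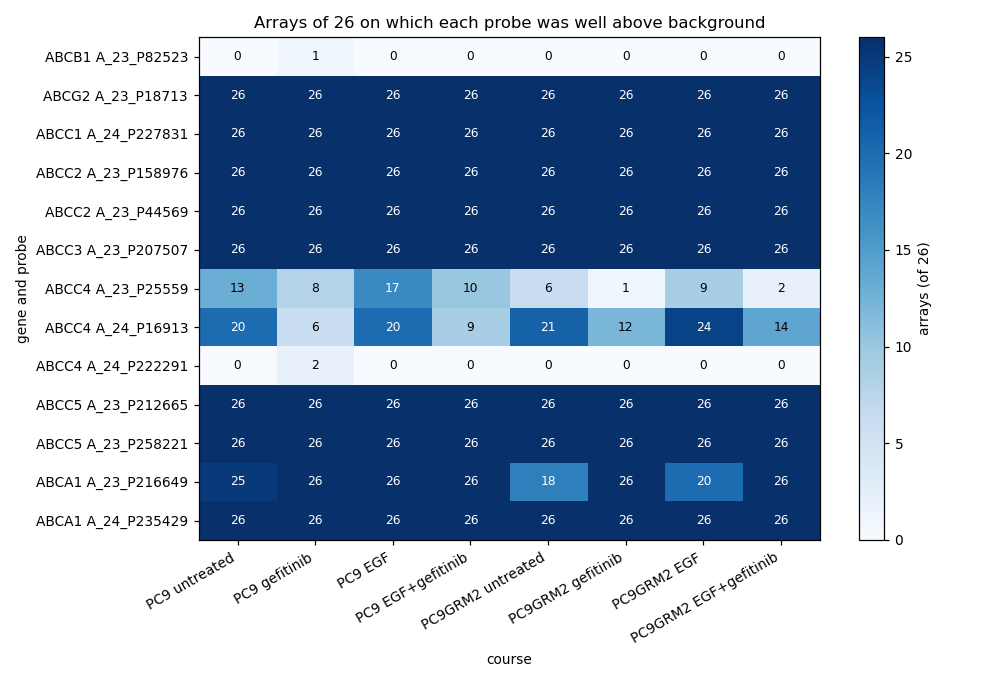
Number of arrays, of 26 in each course, on which each of the 13 probes (rows) was well above background in each of the 8 courses (columns, line and treatment), shown as a number and a shade of blue. The ABCB1 probe was above background on 1 array in all, the 3 ABCC4 probes on 0 to 24 of 26, and the first ABCA1 probe on 18 to 26, whereas all other probes were above background on every array.

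ABCG2, the other multidrug pump, was measured by 1 probe (A_23_P18713) that was well above background on every array. In untreated PC9 cells its log2 signal ran from a lowest value of 9.97 through a median of 10.45 to a highest of 11.80, and with gefitinib it ran from 8.49 through 9.05 to 10.81. In untreated PC9GRM2 cells it ran from 9.24 through 9.76 to 10.16, and with gefitinib from 8.49 through 9.23 to 10.02. The ranges overlapped in both lines over the whole course. From 12 to 24 h they were apart in both lines, at 8.49 to 9.75 with gefitinib against 10.49 to 11.80 without in PC9, and at 8.49 to 9.24 against 9.69 to 10.15 in PC9GRM2.

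Averaged over the course, ABCG2 fell by 1.17 with gefitinib in PC9 (standard error 0.21, 2.25-fold, adjusted p = 1.22e-05, lower at 20 of 26 time points) and by 0.56 in PC9GRM2 (standard error 0.11, 1.48-fold, adjusted p = 4.03e-05, lower at 19 of 26). The difference grew with time. In PC9 the mean difference was 0.23 at 0 to 6 h, -1.01 at 7 to 12 h, -2.12 at 13 to 18 h and -2.24 at 19 to 24 h. In PC9GRM2 it was 0.03, -0.47, -0.88 and -1.13 in the same windows. Both lines thus had a difference that changed over the course (limma's F-test of a spline of time, adjusted p = 6.96e-14 in PC9 and 2.81e-06 in PC9GRM2). In the first 13 time points alone the effect was not called in either line (-0.20, adjusted p = 0.344, and -0.15, adjusted p = 0.37, limma), and in the last 13 it was -2.13 and -0.97. Because the differences at successive hours were strongly correlated (lag-1 autocorrelation 0.91 in PC9), a standard error inflated for this left the mean over the course uncalled (adjusted p = 0.304 in PC9 and 0.112 in PC9GRM2). Whether fewer cells expressed ABCG2 or each cell held less of its RNA cannot be told apart in bulk RNA, for this gene and the others.

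**Figure D2:**
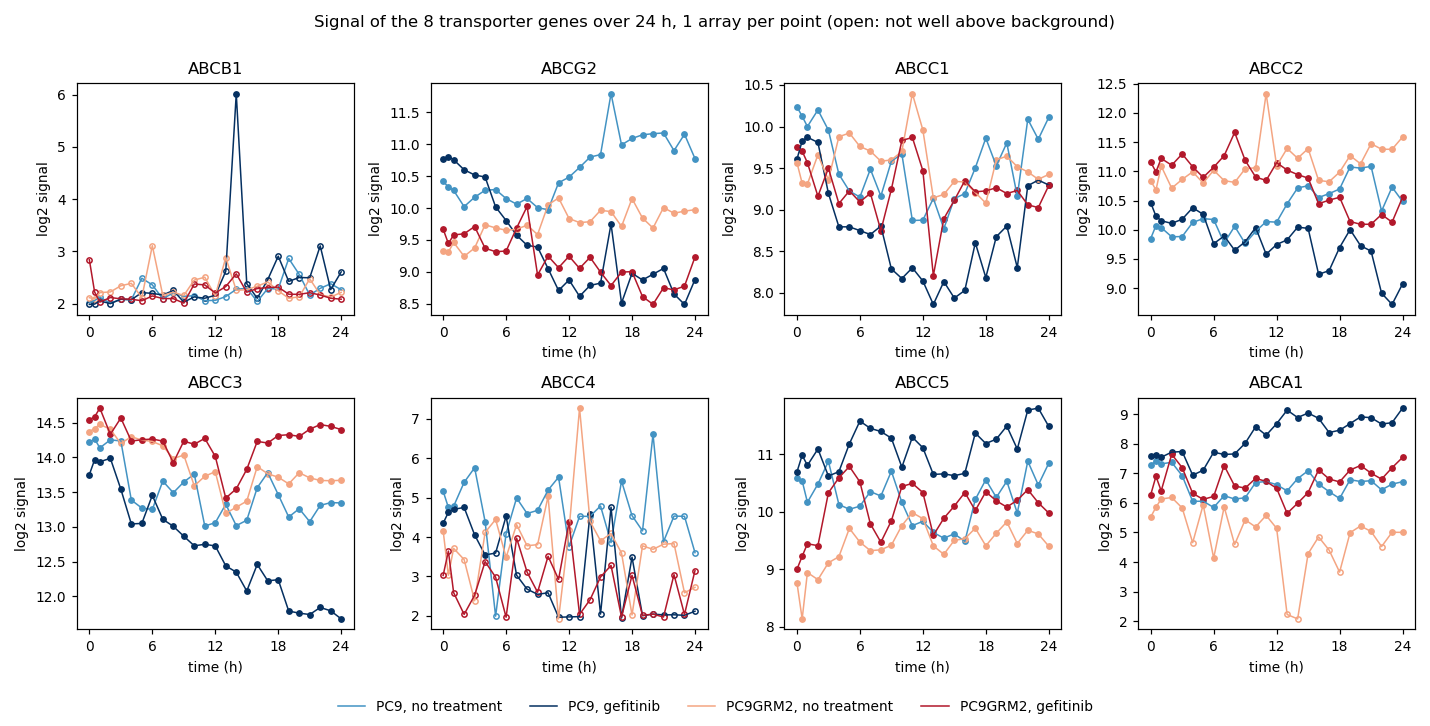
Log2 signal (y axis) of the representative probe of each of the 8 genes against time in h (x axis), for untreated and gefitinib-treated cells of PC9 (blue) and PC9GRM2 (red), with 1 array per point and open points where the probe was not well above background. ABCG2 separates by treatment after about 6 h, ABCA1 and ABCC5 lie higher with gefitinib in both lines, and ABCB1 stays near 2 apart from 1 array at 14 h.

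With gefitinib all 7 tested genes were called in each line. ABCC4 is among them, but its probe passed the filter only in untreated and EGF-treated PC9 cells (13 and 17 of 26 arrays). The filter thus favoured lower ABCC4 values with gefitinib and in PC9GRM2, and its calls are not evidence on their own. In PC9, 2 were higher (ABCC5 and ABCA1), in a background where 35.1% of all tested genes were called higher, and 5 were lower (ABCG2, ABCC1, ABCC2, ABCC3 and ABCC4), where 37.2% of all tested genes were called lower. In PC9GRM2, 3 were higher (ABCC3, ABCC5 and ABCA1, background 32.6%) and 4 were lower (ABCG2, ABCC1, ABCC2 and ABCC4, background 34.2%). The median absolute difference of the 7 genes was 0.88 in PC9 and 0.56 in PC9GRM2, against 0.44 and 0.32 over all tested genes. The same genes went in the same directions when gefitinib was compared on top of EGF, in arrays that the first comparison did not use. In PC9 with EGF, 2 were higher (background 39%) and 5 lower (39.9%), and in PC9GRM2 with EGF 3 were higher (36.7%) and 4 lower (37.8%). With a standard error inflated for autocorrelation the calls on top of EGF were lost for ABCG2 in PC9 (adjusted p = 0.146) and for ABCC2 in PC9 (adjusted p = 0.3) and PC9GRM2 (adjusted p = 0.372).

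**Figure D3:**
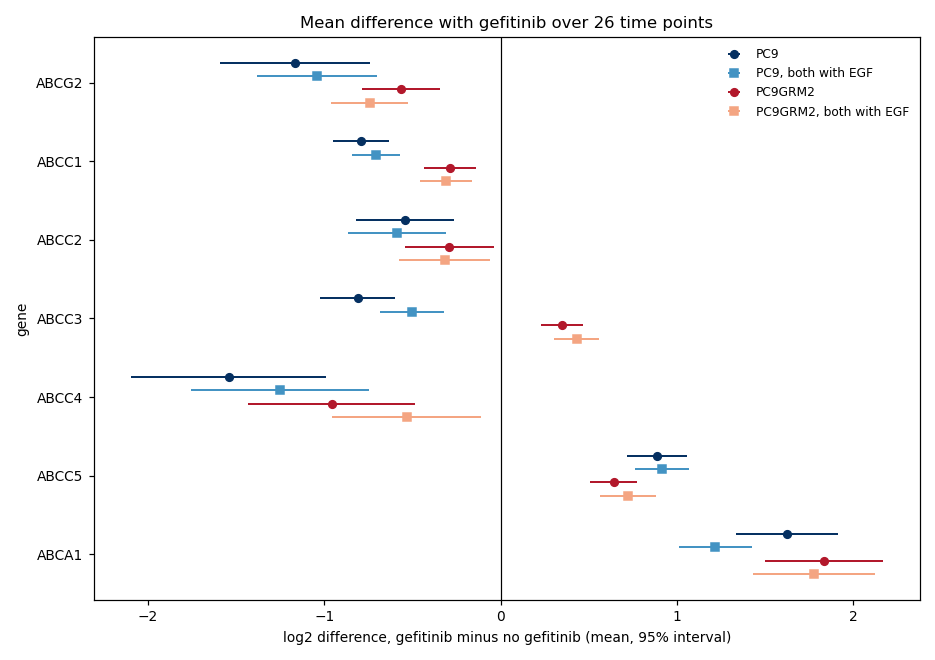
Mean log2 difference with gefitinib over 26 time points (x axis, points with 95% intervals) for the 7 tested genes (y axis), in PC9 (blue) and PC9GRM2 (red), without EGF (circles) and with EGF in both courses compared (squares). ABCC5 and ABCA1 lie to the right of 0 in both lines, ABCG2, ABCC1, ABCC2 and ABCC4 to the left, and ABCC3 lies at -0.81 in PC9 and 0.35 in PC9GRM2 without EGF.

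ABCC1 (MRP1), which exports glutathione conjugates and many anticancer drugs, was well above background on all arrays. Its log2 signal in PC9 ran from 8.77 through a median of 9.51 to 10.24 without treatment and from 7.86 through 8.72 to 9.87 with gefitinib. In PC9GRM2 it ran from 9.08 through 9.54 to 10.40 without treatment and from 8.21 through 9.23 to 9.87 with gefitinib. The ranges overlapped, but every gefitinib-treated PC9 array was below the untreated array of the same hour. The gene fell by 0.79 in PC9 (standard error 0.08, 1.73-fold, adjusted p = 5.87e-10, lower at 26 of 26 time points) and by 0.29 in PC9GRM2 (standard error 0.07, 1.22-fold, adjusted p = 0.000821, lower at 18 of 26). In contrast to ABCG2, the fall was present early in PC9, with -0.46 at 0 to 6 h, -0.87 at 7 to 12 h, -1.14 at 13 to 18 h and -0.80 at 19 to 24 h. On top of EGF the differences were -0.71 in PC9 (adjusted p = 1.97e-10) and -0.31 in PC9GRM2 (adjusted p = 0.000312, limma). The calls in PC9GRM2 were lost with time points 3 h apart (-0.19, adjusted p = 0.151, and on top of EGF -0.25, adjusted p = 0.0805), and that without EGF also in the first 13 time points (-0.29, adjusted p = 0.0673).

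ABCC2 (MRP2) is the pump that secretes conjugates such as bilirubin glucuronide at the apical membrane of hepatocytes. Its signal in PC9 ran from 9.77 through a median of 10.18 to 11.09 without treatment and from 8.72 through 9.81 to 10.46 with gefitinib. In PC9GRM2 it ran from 10.68 through 11.05 to 12.33 without treatment and from 10.09 through 10.92 to 11.67 with gefitinib. Its course resembled that of ABCG2, with ranges that overlapped over the whole course and, in PC9, were apart from 12 h on (8.72 to 10.04 with gefitinib, 10.13 to 11.09 without). The mean difference in PC9 was 0.17 at 0 to 6 h, -0.19 at 7 to 12 h, -0.94 at 13 to 18 h and -1.45 at 19 to 24 h, and in PC9GRM2 it was 0.23, -0.03, -0.38 and -1.16.

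Over all 26 time points the ABCC2 signal dropped by 0.54 in PC9 (standard error 0.13, adjusted p = 0.000724, lower at 16 of 26) and by 0.29 in PC9GRM2 (standard error 0.12, adjusted p = 0.038, lower at 14 of 26). The change over the course was called in both lines (F-test, adjusted p = 2.12e-09 and 8.11e-05). In the first 13 time points the sign was positive in both lines without EGF (0.04, adjusted p = 0.712, and 0.12, adjusted p = 0.524, limma), and in the last 13 the difference was -1.13 and -0.71. A standard error inflated for autocorrelation ended the call of the mean in both lines (adjusted p = 0.246 and 0.376). The call in PC9GRM2 was also lost without the 11 h time point (-0.24, adjusted p = 0.0697, limma), where the untreated array had the highest ABCC2 signal of its course, 12.33 against 11.06 and 11.10 in the hours beside it. The second ABCC2 probe gave -0.56 in PC9 and -0.28 in PC9GRM2.

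ABCC3 (MRP3), a basolateral exporter of glucuronides and bile salts, was the only member whose called gefitinib differences had opposite signs in the lines. Its signal in PC9 ran from 13.01 through a median of 13.37 to 14.27 without treatment and from 11.68 through 12.73 to 13.99 with gefitinib. In PC9GRM2 it ran from 13.20 through 13.79 to 14.48 without treatment and from 13.42 through 14.27 to 14.71 with gefitinib. Thus the gefitinib-treated arrays were the low ones in PC9 and the high ones in PC9GRM2, with overlap in both lines. From 12 h on the PC9 ranges were apart, at 11.68 to 12.73 with gefitinib against 13.02 to 13.78 without, whereas those of PC9GRM2 still overlapped.

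With gefitinib ABCC3 was 0.81 lower in PC9 (standard error 0.10, 1.75-fold, adjusted p = 6.65e-08, lower at 25 of 26 time points). In PC9GRM2 it was 0.35 higher than without treatment (standard error 0.06, 1.27-fold, adjusted p = 6.12e-06, higher at 23 of 26). Both differences grew with time. In PC9 the mean was -0.29 at 0 to 6 h, -0.57 at 7 to 12 h, -1.08 at 13 to 18 h and -1.48 at 19 to 24 h (F-test, adjusted p = 1.88e-06). In PC9GRM2 it was 0.11, 0.26, 0.39 and 0.71 (F-test, adjusted p = 0.000155). There the gefitinib course itself did not rise, with means of 14.44 at 0 to 6 h and 14.39 at 19 to 24 h. The untreated PC9GRM2 course went from 14.33 to 13.69 between the same windows. On top of EGF, ABCC3 was 0.51 lower with gefitinib in PC9 (adjusted p = 8.1e-06) and 0.43 higher in PC9GRM2 (adjusted p = 5.1e-07).

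ABCC4 (MRP4), an exporter of cyclic nucleotides, nucleotide analogues and prostaglandins, was measured close to background. The representative probe (A_23_P25559) was well above background on 13 of 26 untreated and 8 of 26 gefitinib-treated arrays in PC9, and on 6 and 1 of 26 in PC9GRM2. Its signal in PC9 ran from 1.99 through a median of 4.57 to 6.61 without treatment and from 1.94 through 2.63 to 4.76 with gefitinib. In PC9GRM2 it ran from 1.92 through 3.79 to 7.28 without treatment and from 1.96 through 2.95 to 4.38 with gefitinib. The lower values of each course were thus background readings, and the ranges overlapped. This probe passed the filter only through PC9 courses without gefitinib, so that a fall with gefitinib was favoured by the filter.

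The fitted difference of ABCC4 was -1.54 in PC9 (adjusted p = 9.7e-06, lower at 22 of 26 time points) and -0.96 in PC9GRM2 (adjusted p = 0.000578, lower at 20 of 26). Where both arrays of a pair were above background the difference in PC9 was -0.70 (SD 0.59, 6 time points), and there were 0 such pairs in PC9GRM2. The second probe (A_24_P16913), above background on 20 and 6 of 26 arrays in PC9 and on 21 and 12 in PC9GRM2, gave -2.08 and -0.95. Its difference where both arrays were above background was -0.40 (SD 0.50, 6 time points) in PC9 and -0.49 (SD 0.51, 11 time points) in PC9GRM2. With a floor of 16 on the signal the PC9GRM2 difference was -0.22 and was not called (adjusted p = 0.132, limma), and with normexp background correction it was -0.07 (adjusted p = 0.0764).

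ABCC5 (MRP5), an exporter of cyclic nucleotides and of nucleotide analogues, was higher with gefitinib in both lines. Its signal in PC9 ran from 9.49 through a median of 10.23 to 10.88 without treatment and from 10.62 through 11.15 to 11.80 with gefitinib. In PC9GRM2 it ran from 8.14 through 9.43 to 9.99 without treatment and from 9.00 through 10.13 to 10.79 with gefitinib. The ranges overlapped, but within an hour the gefitinib-treated array was the higher one at 25 of 26 time points in PC9 and at 26 of 26 in PC9GRM2.

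ABCC5 rose by 0.88 in PC9 (standard error 0.08, 1.85-fold, adjusted p = 2.31e-10) and by 0.64 in PC9GRM2 (standard error 0.07, 1.56-fold, adjusted p = 1.49e-09). The rise was present from the first window, at 0.59 in PC9 and 0.89 in PC9GRM2 for 0 to 6 h. After that it stayed at 0.99 to 1.04 in PC9 and at 0.44 to 0.58 in PC9GRM2. The second probe gave 0.95 and 0.63, although it was saturated on 6 gefitinib-treated PC9 arrays. On top of EGF the rise was 0.91 in PC9 (adjusted p = 1.06e-11) and 0.72 in PC9GRM2 (adjusted p = 3.28e-09, limma).

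ABCA1, the cholesterol exporter, had the largest rise with gefitinib among the 7 tested genes in each line. Its first probe (A_23_P216649) ran in PC9 from 5.85 through a median of 6.66 to 7.40 without treatment and from 6.94 through 8.42 to 9.20 with gefitinib. In PC9GRM2 it ran from 2.08 through 5.02 to 6.18 without treatment and from 5.65 through 6.76 to 7.64 with gefitinib. The gefitinib-treated array was the higher one at every time point in both lines, and the ranges overlapped by less than 1 log2 unit. From 12 h on they were apart, at 8.38 to 9.20 with gefitinib against 6.15 to 7.09 without in PC9, and at 5.65 to 7.54 against 2.08 to 5.22 in PC9GRM2.

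ABCA1 rose by 1.62 in PC9 (standard error 0.14, 3.08-fold, adjusted p = 5.09e-11) and by 1.83 in PC9GRM2 (standard error 0.16, 3.56-fold, adjusted p = 1.01e-10). The rise grew from 0.71 at 0 to 6 h through 1.71 at 7 to 12 h to 2.21 and 2.17 in the later windows in PC9. In PC9GRM2 it was 1.24 in the first 13 time points and 2.43 in the last 13. In untreated PC9GRM2 cells the probe was above background on 18 of 26 arrays, and at the 18 time points where both arrays were above it the rise was 1.48 (SD 0.66). The second probe (A_24_P235429) was above background on every array and gave 1.66 in PC9 and 1.78 in PC9GRM2. On top of EGF the rise was 1.22 in PC9 (adjusted p = 1.86e-11) and 1.78 in PC9GRM2 (adjusted p = 3.17e-10).

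**Figure D4:**
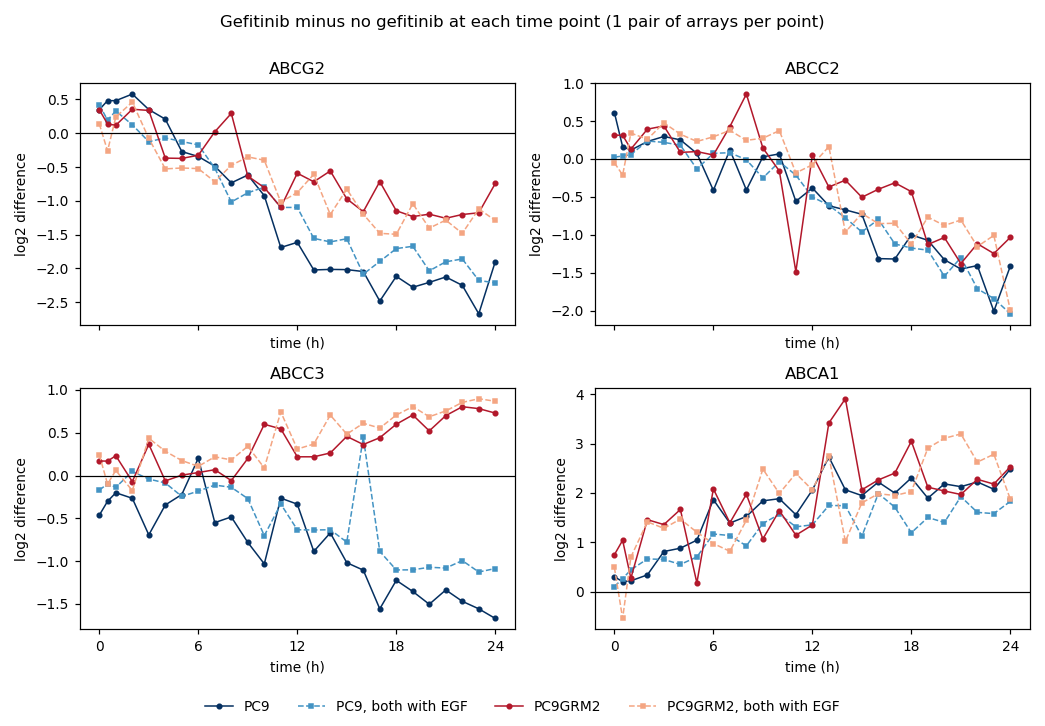
Log2 difference with gefitinib (y axis) at each time point in h (x axis) for ABCG2, ABCC2, ABCC3 and ABCA1, in PC9 (blue) and PC9GRM2 (red), without EGF (solid lines) and with EGF in both courses compared (dashed lines), with 1 pair of arrays per point. In PC9, ABCG2 moves from a mean of 0.23 at 0 to 6 h to -2.24 at 19 to 24 h, and ABCC2 turns negative later. The difference of ABCC3 moves down in PC9 and up in PC9GRM2, and that of ABCA1 is above 0 throughout without EGF.

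Whether the gefitinib effect itself differed between the lines was tested on the difference of the differences at each time point. The effect was more positive in PC9GRM2 for 4 of the 7 genes, against 17% of all tested genes, and more negative for 0 of 7 (16.9% of all tested genes, 1 of the 7 at an unadjusted p under 0.05, and 0 by the t-test of the methods). ABCC3 differed most, by 1.16 (standard error 0.15, adjusted p = 6.56e-07, more positive in PC9GRM2 at 25 of 26 time points). ABCG2 differed by 0.60 (standard error 0.13, adjusted p = 0.000546, 18 of 26), ABCC1 by 0.50 (standard error 0.11, adjusted p = 0.00071, 21 of 26) and ABCC2 by 0.25 (standard error 0.09, adjusted p = 0.0305, 21 of 26). For ABCG2, ABCC1 and ABCC2 the fall was thus smaller in the resistant line. With a standard error inflated for autocorrelation the line differences in the gefitinib effect of ABCG2 (adjusted p = 0.214) and ABCC2 (adjusted p = 0.121) were not called. That of ABCC2 was also lost without the 16 h time point (0.23, adjusted p = 0.0526, limma) and with 75th percentile scaling (0.22, adjusted p = 0.0676). It was lost as well with time points 3 h apart (0.23, adjusted p = 0.266) and with unpaired courses (0.25, adjusted p = 0.327). That of ABCG2 was lost with time points 3 h apart too (0.56, adjusted p = 0.0778).

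For ABCA1 the difference was 0.21 (95% interval -0.03 to 0.45, adjusted p = 0.174, limma). That of ABCC5 was -0.25 (95% interval -0.48 to -0.01, adjusted p = 0.0985) and that of ABCC4 was 0.58 (95% interval -0.12 to 1.29, adjusted p = 0.197). None of the 3 was called, and the intervals leave room for differences in these ranges. The other probe of ABCC5, saturated on 6 gefitinib-treated PC9 arrays, was called when every probe was tested on its own (-0.32, adjusted p = 0.00117), and in the last 13 time points the first ABCC5 probe was called as well (-0.46, adjusted p = 0.00234, limma). The second ABCA1 probe gave 0.12 (adjusted p = 0.544), and normexp background correction turned the value of the first to -0.38.

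Gefitinib effects also changed during the course for 6 of the 7 genes in PC9, where 52.3% of all tested genes were called, and for 5 of 7 in PC9GRM2 (45.5%). ABCC4 was not called in PC9 (adjusted p = 0.145) or PC9GRM2 (adjusted p = 0.81), and ABCC5 was not called in PC9GRM2 (adjusted p = 0.155). Without treatment, the signal changed over time for 6 of 7 genes in PC9 (66.3% of all tested genes) and for 5 of 7 in PC9GRM2 (67.2%). Fitted ranges ran from 0.97 for ABCC2 to 1.55 for ABCA1 among the genes called in PC9, and from 0.68 for ABCG2 to 1.71 for ABCA1 among those called in PC9GRM2. The ABCA1 range in PC9GRM2 takes in background readings at 13 and 14 h (2.23 and 2.08). Its second probe, above background there, read 9.25 and 8.76. By the F-test this ABCA1 call was lost with scan day as a random block (adjusted p = 0.192) and without the 14 h time point (adjusted p = 0.0614). In untreated PC9 cells ABCG2 was lowest at 10 h (9.97) and highest at 16 h (11.80), and its arrays from 12 h on had a median of 10.99. ABCC3 was highest at 0.5 h and lowest at 11 h in PC9, and highest at 1 h and lowest at 13 h in PC9GRM2. Each time point has its own slide, so that time and slide cannot be told apart in this comparison.

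EGF had small effects on these genes. In PC9, 2 of 7 were higher with EGF (11.3% of all tested genes) and 1 was lower (14.3%). ABCC2 rose by 0.15 (standard error 0.03, adjusted p = 0.000592, higher at 24 of 26 time points) and ABCA1 by 0.33 (standard error 0.06, adjusted p = 0.000122, 23 of 26), and ABCC3 fell by 0.30 (standard error 0.06, adjusted p = 0.000476, lower at 22 of 26). In PC9GRM2, 0 of 7 were higher (4.09% of all tested genes, 0 of 7 at an unadjusted p under 0.05 and by the t-test of the methods). ABCC3 alone was lower (background 5.04%), by 0.14 (standard error 0.04, adjusted p = 0.0118, 20 of 26).

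When gefitinib was present, limma called no effect of EGF on any of the 7 genes. In PC9, 0 were higher (0.0452% of all tested genes) and 0 lower (0%), with 1 of 7 at an unadjusted p under 0.05. In PC9GRM2, 0 were higher (1.07%) and 0 lower (2.14%), with 2 of 7 at an unadjusted p under 0.05, and the t-test of the methods also called 0 in both lines. ABCC4 in PC9GRM2 came closest to the threshold (adjusted p = 0.0612), but its probe was above background on 1 and 2 of 26 arrays of the courses compared, so that no size is given. ABCG2 in PC9GRM2 was next (-0.16, 95% interval -0.26 to -0.05, adjusted p = 0.0886, limma).

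The resistant line was compared with PC9 under each treatment. Without treatment, 2 of 7 genes were higher in PC9GRM2 (31.1% of all tested genes) and 4 were lower (37%). ABCC2 and ABCC3 were the higher ones, by 0.79 (standard error 0.09, adjusted p = 6.54e-09, higher at 26 of 26 time points) and 0.38 (standard error 0.07, adjusted p = 1.97e-05, 22 of 26). ABCA1 was 1.73 lower in PC9GRM2 (standard error 0.18, 3.32-fold, adjusted p = 1.67e-09, lower at 26 of 26), and its second probe was 1.20 lower. At the 17 time points where the first probe was above background in both lines it was 1.46 lower (SD 0.52). ABCG2 was 0.85 lower (standard error 0.09, adjusted p = 6.72e-10, 25 of 26), ABCC5 0.83 lower (standard error 0.12, adjusted p = 9.92e-07, 23 of 26) and ABCC4, near background, 0.87 lower (adjusted p = 0.00603). The ABCC4 probe passed the filter through PC9 courses alone, so that its call as lower in PC9GRM2 was favoured by the filter. ABCC1 was not called, with a difference of 0.00 (95% interval -0.25 to 0.24, adjusted p = 0.979).

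With gefitinib, 3 of 7 were higher in PC9GRM2 (30.7% of all tested genes) and 2 were lower (34.3%). The difference of ABCC3 was then 1.54 (standard error 0.14, 2.90-fold, adjusted p = 8e-11) and that of ABCC2 was 1.04 (standard error 0.08, 2.06-fold, adjusted p = 7.05e-12), each higher at 26 of 26 time points. ABCC1 was 0.50 higher (adjusted p = 0.000563, 19 of 26), and this call was lost with a standard error inflated for autocorrelation (adjusted p = 0.096). ABCC5 was 1.08 lower and ABCA1 1.52 lower, both at 26 of 26 time points. ABCG2 was 0.24 lower (95% interval -0.49 to 0.01, adjusted p = 0.0786, lower at 13 of 26), so that the gap seen without treatment was not called under the drug. In the first 13 time points ABCG2 was 0.53 lower in PC9GRM2 and was called (adjusted p = 0.0127, limma), as it was over the whole course with outlying points replaced by a spline (-0.25, adjusted p = 0.0447). In the last 13 it was 0.05 higher (adjusted p = 0.75).

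With EGF, 2 of 7 were higher in PC9GRM2 (32.8% of all tested genes) and 4 were lower (37%), the same genes as without treatment. With both agents, 3 were higher (31.5%) and 3 were lower (36.2%). ABCC3 was 0.54 higher with EGF and 1.48 higher with both, ABCC2 was 0.65 and 0.92 higher, and ABCA1 was 1.93 and 1.37 lower. ABCC4 was 0.28 lower with gefitinib (adjusted p = 0.3) and 0.05 lower with both (adjusted p = 0.907, limma). That probe was above background in both lines at 0 of 26 time points in either comparison. The second ABCC4 probe was above background in both lines at 5 time points with gefitinib, where it was 0.43 lower in PC9GRM2 (SD 0.38, lower at 4 of 5), and its fitted difference over all 26 time points, 0.87 higher, rests mostly on background readings in PC9. These differences are between 1 clone and its parental line, scanned on different days. PC9 arrays had 183 to 1616 saturated features each and PC9GRM2 arrays had 0. The part of such intensity differences in the values above was not tested.

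**Figure D5:**
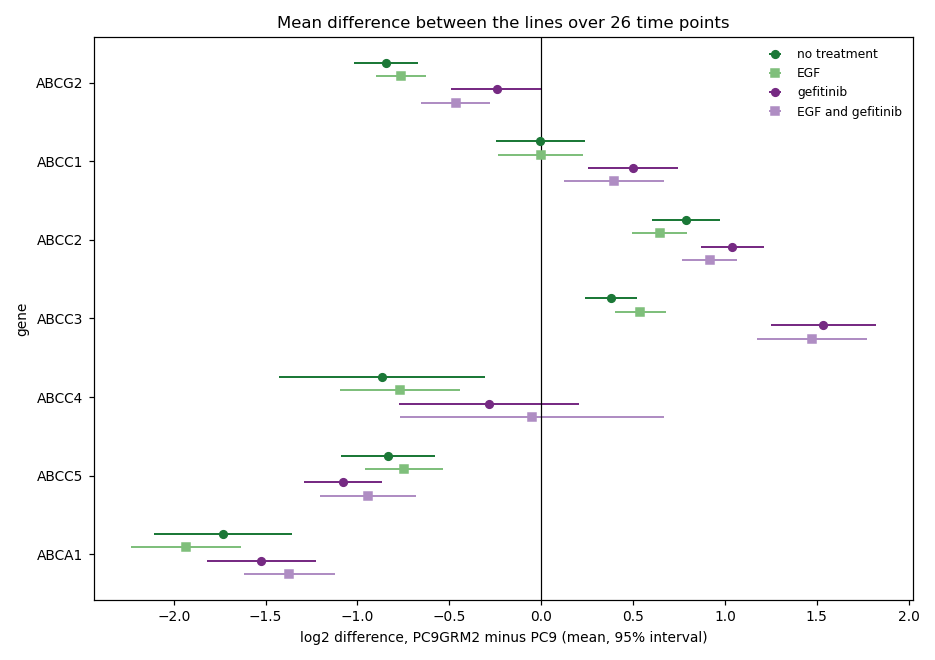
Mean log2 difference between the lines, PC9GRM2 minus PC9, over 26 time points (x axis, points with 95% intervals) for the 7 tested genes (y axis) without treatment, with EGF, with gefitinib and with both. ABCC2 and ABCC3 lie to the right of 0 and ABCC5 and ABCA1 to the left under all 4 treatments, and ABCC3 moves from 0.38 without treatment to 1.54 with gefitinib.

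The order of the 8 course means shows where neighbours stood apart by more than the larger of their standard deviations over time. For ABCA1 the untreated and EGF courses of PC9GRM2 were lowest (4.90 and 5.03), followed after such a gap by the untreated PC9 course (6.63). The course with both agents (8.18) and that with gefitinib alone (8.25) in PC9 were highest, after another gap. ABCC5 had its gaps between the PC9GRM2 courses with EGF (9.40) and with gefitinib (10.04) and between the untreated PC9 course (10.23) and PC9 with both agents (11.07). For ABCG2 the PC9 courses with EGF (10.54) and without treatment (10.60) stood above the other 6, and for ABCC2 the 2 gefitinib courses of PC9 (9.79 and 9.89) stood below the other 6. Neighbouring means of ABCB1, ABCC1, ABCC3 and ABCC4 did not stand apart in this sense.

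Within courses, ABCG2 and ABCC2 moved most alike of all pairs of the tested genes, with a median Pearson correlation over the 8 courses of 0.73 (lowest 0.64, highest 0.88, 26 time points each). ABCC1 and ABCC3 followed with 0.63 (0.27 to 0.71). These are descriptions of courses that share slides. Over all arrays with a value for both genes, those most like ABCG2 were SAMD4A (r = 0.92), FAM72D (0.90) and BMAL2 (0.90). Most like ABCC2 were ATG5 (0.86), SLCO1B3 (0.84), which encodes a hepatic uptake carrier of organic anions, and ATP2C1 (0.84). For ABCA1 they were HRK (0.90), CCNO (0.89) and NFE2 (0.89). ABCC3 was most like ITGA3 (0.86), MYEOV (0.85) and MEGF9 (0.82), ABCC1 was like KLC1 (0.86) and WDR1 (0.84), and ABCC5 most like SCPEP1 (0.89), PTPN6 (0.88) and PHYKPL (0.87). ABCC4 reached 0.65 with USP14, 0.64 with PPP2R2A and 0.64 with FMNL2. The correlations over all arrays combine differences between lines, treatments and times.

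The other ABC genes were measured alongside. Of 40 with a probe, 28 passed the filter. With gefitinib 8 of the 28 were higher and 10 lower in PC9 (35.1% and 37.2% of all tested genes). In PC9GRM2, 8 were higher and 11 lower (32.6% and 34.2%). Their median difference was 0.02 in PC9 and -0.04 in PC9GRM2, against -0.79 and -0.29 for the 7 tested transporters and -0.02 and -0.01 over all tested genes. ABCA5, a relative of ABCA1, rose by 1.90 in PC9 (adjusted p = 5.74e-11) and rose by 1.77 in PC9GRM2 (adjusted p = 4.79e-12), both lines showing it at all 26 time points. ABCC11 fell by 1.95 in PC9GRM2 (adjusted p = 1.44e-06). Between the untreated lines 8 were higher and 14 lower in PC9GRM2 (31.1% and 37% of all tested genes). ABCA12, a lipid transporter gene of keratinocytes, was 3.60 lower and ABCA4, a retinoid transporter gene of the retina, 3.05 lower. The gefitinib effect differed between the lines for 3 in each direction (17% of all tested genes more positive in PC9GRM2 and 16.9% more negative).

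Among 7 target genes of the liver X receptors other than ABCA1, all tested, 4 were higher and 2 lower with gefitinib in PC9 (35.1% and 37.2% of all tested genes). In PC9GRM2, 4 were higher and 3 lower (32.6% and 34.2%). The lower ones are not named, since ABCG1 and MYLIP had the largest absolute differences in both lines. ABCG1, a cholesterol exporter gene like ABCA1, rose by 1.71 in PC9 (adjusted p = 4.79e-10) and rose by 1.48 in PC9GRM2 (adjusted p = 5.14e-11). MYLIP, whose product marks the LDL receptor for degradation, rose by 1.44 (adjusted p = 2.81e-13) and 1.54 (adjusted p = 7.8e-13). Of 19 transcription factors of transporter genes, 17 were tested, and 7 were higher and 4 lower with gefitinib in each line. Of all tested genes, 35.1% were higher and 37.2% lower in PC9, and 32.6% and 34.2% in PC9GRM2. NR1H3, which encodes liver X receptor alpha, rose by 1.42 in PC9 (adjusted p = 1.93e-09) and rose by 0.92 in PC9GRM2 (adjusted p = 2.75e-07). RXRA, its partner, rose by 1.21 in PC9 (adjusted p = 3.67e-10) and RXRB by 0.87 in PC9GRM2 (adjusted p = 3.23e-10). Each was among the 2 largest called differences of its own line, and a comparison of the lines is not given for either. Without treatment, 5 of the 17 factors were higher and 5 lower in PC9GRM2 (31.1% and 37% of all tested genes), with PPARA and YBX1 each 0.96 lower. Of the liver X receptor targets, 2 were higher and 2 lower, with LPCAT3 1.01 lower (adjusted p = 2.56e-06) and SCD 0.79 lower (adjusted p = 1.49e-06).

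Genes that supply the substrates of the ABCC pumps, for glutathione synthesis and conjugation, were tested for 15 of 16 listed. With gefitinib 5 were higher and 7 lower in PC9 (35.1% and 37.2% of all tested genes), and 5 were higher and 4 lower in PC9GRM2 (32.6% and 34.2%). SLC7A11, the cystine importer of glutathione synthesis, fell by 2.06 in PC9 (adjusted p = 1.29e-06) and fell by 1.51 in PC9GRM2 (adjusted p = 5.39e-07), and MGST2, a membrane glutathione transferase, rose by 1.15 (adjusted p = 4.1e-13) and 0.97 (adjusted p = 3.92e-10). Between the untreated lines 2 were higher and 8 lower in PC9GRM2 (31.1% and 37% of all tested genes). GSTP1, the abundant cytosolic transferase, was 0.97 higher (adjusted p = 1.09e-14) and MGST1 1.02 lower (adjusted p = 2.35e-10).

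Most of the listed drug carriers take drugs up into cells, opposite to the efflux pumps, and 10 of 15 genes passed the filter. With gefitinib 5 were higher and 4 lower in PC9 (35.1% and 37.2% of all tested genes), and 4 were higher and 3 lower in PC9GRM2 (32.6% and 34.2%). SLCO1B3 fell by 2.32 in PC9 (adjusted p = 7.86e-09) and fell by 1.64 in PC9GRM2 (adjusted p = 4.52e-08), while SLC47A2, which encodes a kidney cation antiporter, rose by 2.60 (adjusted p = 1.33e-09) and 1.36 (adjusted p = 4.29e-06). Untreated PC9GRM2 cells had 5 carriers higher and 2 lower (31.1% and 37% of all tested genes). SLCO1B3 was 3.77 higher (adjusted p = 7.02e-20, 26 of 26 time points) and its paralog SLCO1B1 1.77 higher (adjusted p = 1.81e-12). Of 7 membrane anchors that hold transporters at the cell surface, 6 were tested. PDZK1, a scaffold of apical transporters, rose by 2.85 in PC9 (adjusted p = 2.77e-12) and rose by 1.69 in PC9GRM2 (adjusted p = 8.9e-12). In that list 3 were higher and 2 lower in PC9 (35.1% and 37.2% of all tested genes), with NHERF2 0.66 higher. In PC9GRM2, 2 were higher and 4 lower (32.6% and 34.2%), with MSN (moesin) 1.06 lower. Between the untreated lines 4 anchors were higher and 1 lower in PC9GRM2 (31.1% and 37% of all tested genes), with NHERF2 1.39 higher and NHERF1 0.91 lower.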

How the data were processed

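RNA of 2 cell lines under 4 treatments was hybridised to one-colour Agilent 44K arrays (Cy3). The authors deposited spot intensities written by Feature Extraction 10.5.1.1 (per the file headers, annotation hg18), background-subtracted and not normalised between arrays, and a table of quantile-normalised intensities. Sample groups follow the labels.

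Here the processed intensities of 43376 non-control features were quantile normalised, given a floor of 1 and log2 transformed, outlier spots (0.263% of values) were removed and spots of a probe averaged. Of 41000 probes, 24794 matched a gene symbol (16961 genes). The probe of largest variance represented a gene, which was tested (13263 genes) where 13 or more of 26 arrays in any course showed that probe well above background. limma 3.58.1 (R 4.3.3) was fitted over all tested genes and checked on simulated data, with time as a natural spline of 4 degrees of freedom. The simulated time points were independent, unlike those of the real courses, so that the check does not cover false calls under autocorrelation. Time points were paired as matched hours, whose 4 treatments shared a slide.

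All 8 transporter genes are named. Of each other list the 2 called genes with the largest absolute difference were named for each gefitinib effect without EGF and for the untreated line difference, and for likeness the 3 genes with the highest correlation. Some genes that this rule names are not reported here. The members and lists were chosen with earlier results of these data known. Alternatives were other scaling, normexp (offset 50, on the median spot signal, since the mean was not used here), the deposited table, other probes, filters and floors, spline replacement of outlying points, the methods' t-test, inflation for autocorrelation, fewer time points, unpaired courses, scan day as a random block and a one-sided test. Leaving out the 14 h, 11 h or 16 h time point was chosen after seeing the data. With 1 array at each hour, single values have no replicate.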

Additional observations from a re-analysis of the deposited data

Results flagged for a closer look

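For 4 of the 7 tested transporter genes the gefitinib effect differed between the lines by limma's test of the difference itself. The effect in PC9GRM2 minus that in PC9 was 1.16 for ABCC3, 0.60 for ABCG2, 0.50 for ABCC1 and 0.25 for ABCC2, on the log2 scale over 26 time points. The effects behind these values were 0.35 and -0.81 for ABCC3, -0.56 and -1.17 for ABCG2, -0.29 and -0.79 for ABCC1, and -0.29 and -0.54 for ABCC2, in PC9GRM2 and PC9. Under the standard error inflated for autocorrelation, ABCC3 (adjusted p = 0.0484) and ABCC1 were still called, and ABCG2 and ABCC2 were not. In the first 13 time points the difference was called for ABCC3 alone.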

How the results depend on the processing

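Of the values of single genes recomputed under alternatives, 1613 kept their direction and side of the threshold, 99 lost a call, 18 gained one and 20 changed sign. The rises of ABCA1 and ABCC5 and the falls of ABCC1 and ABCC3 with gefitinib in PC9 were called under every alternative run, and the cause of the changes below was not tested. The number of the 7 genes whose gefitinib effect differed between the lines, 4, became 2 with inflation for autocorrelation and with time points 3 h apart, and 1 in the first 13 time points. With EGF, the 3 genes called in PC9 became 0 with time points 3 h apart and with the courses unpaired (no replicate block), and 1 in the first 13 time points. The 1 gene called in PC9GRM2 became 0 under these settings and with inflation for autocorrelation. For EGF under gefitinib in PC9GRM2, 0 became 1 with spline replacement, in the last 13 time points and without the 16 h time point. The 7 genes called with gefitinib in PC9GRM2 became 4 with time points 3 h apart, with or without EGF, and without EGF 3 in the first 13 time points. With time points 3 h apart, the change of the gefitinib effect over time fell from 6 to 3 genes in PC9 and from 5 to 2 in PC9GRM2, and change over time without treatment from 6 and 5 to 0, where scan day as a random block left 6 in PC9 and 3 in PC9GRM2. The one-sided test for higher signal in PC9GRM2 left 2 genes without treatment and with EGF, and 3 with gefitinib and with both. Unpaired courses (no replicate block) moved no other count of called genes by over 1.5 times.

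Signs changed as follows. With normexp the line difference in the gefitinib effect of ABCA1 became -0.38 (adjusted p = 5.8e-05). ABCC1, near 0 between the lines, became 0.024 with EGF under normexp, 0.016 with scan day as a block, 0.10 with time points 3 h apart and 0.15 in the first 13, and without treatment 0.0078, 0.051 and 0.0054 with normexp, the first 13 time points and scan day. ABCC2 in the first 13 time points was 0.044 and 0.12 higher with gefitinib in PC9 and PC9GRM2, and on top of EGF 0.021 and 0.21 (adjusted p = 0.0168 for the last). The line difference of ABCC4 with both agents became 0.44 with the probe of highest mean, 0.11 with the mean of probes, 0.46 in the last 13 time points and 0.026 with scan day, and with gefitinib 0.87, 0.10 and 0.10 under the first 3 of these. These ABCC4 values rest mostly on background readings: the probe of highest mean was above background on 6 of 26 PC9 arrays with gefitinib, and at the 5 time points where it was above in both lines it was 0.43 lower in PC9GRM2. ABCG2 with gefitinib became 0.049 in the last 13. Of 24 uncalled EGF effects, 27 of 452 values had the opposite sign and 5 were called.

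Without the 14 h, 11 h or 16 h time point, calls changed for change over time of ABCA1 (PC9GRM2, 14 h, adjusted p = 0.0614), ABCC1 and ABCC4 (PC9GRM2, gained without 11 h, adjusted p = 0.0465 and 0.0351), and for the changing gefitinib effect of ABCC5 (PC9, 11 h, adjusted p = 0.0547) and ABCC4 (PC9, gained without 16 h, adjusted p = 0.0341). Over all tested genes, the number called ranged over the alternatives from 400 to 5073 for EGF in PC9, 14 to 2244 for EGF in PC9GRM2, 0 to 99 and 0 to 759 for EGF under gefitinib, 1037 to 6688 for the difference of gefitinib effects, 5415 to 13285 for gefitinib in PC9GRM2, 6455 to 14262 in PC9, 7515 to 15667 on top of EGF in either line, 1213 to 10300 for the changing gefitinib effect, 62 to 13260 for change over time, and 4043 to 13530 between the lines. Signal over background limits ABCB1 and ABCC4.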
